A study of Mus musculus with 4 samples.

Results

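The clustered protocadherins are cell-surface adhesion proteins encoded by tandem arrays of genes on mouse chromosome 18, and their transcripts were followed in primary neural stem cells depleted of Seh1. Members were chosen by symbol, as all genes named Pcdha, Pcdhb or Pcdhg with a number. The files held 55 of them among 17621 genes: 11 of the alpha cluster, 22 of the beta cluster and 22 of the gamma cluster. The gamma members comprised 12 of type A, 7 of type B, with the transcribed pseudogene Pcdhgb8 among them, and 3 of type C. Pcdha1, Pcdha4 and Pcdha7 were not analysed here.

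In the alpha and gamma clusters each variable exon has its own promoter, encodes a whole extracellular domain and is spliced to constant exons shared by the cluster, while each beta gene is a complete exon without a constant part. Neurons switch on a small, largely random set of the alternate promoters, through CTCF and cohesin and after removal of DNA methylation, whereas the C-type isoforms at the end of the alpha and gamma clusters follow cell type and stage. Matching sets of isoforms bind each other across membranes, and this underlies self-avoidance of dendrites in mice. Axon tiling and survival of interneurons in mice also depend on members of these clusters.

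The cells came from the cortex of newborn (P0) mice and were sampled in differentiation medium after both EGF and bFGF had been taken away (D3), or in growth medium with both factors (D0). The labels give iKO cells as cmv-cre-ert,seh1 f/f, a Cre-ERT recombinase named with a CMV promoter on floxed Seh1 alleles, and Ctrl cells as Seh1 f/f, the same floxed alleles without Cre. The labels do not say whether an inducer was added. The 4 groups D3_iKO, D3_Ctrl, D0_iKO and D0_Ctrl held 1 library each, with 19611788, 19745921, 20625897 and 21040590 expected counts in that order. No difference could be set against a spread between replicates, and no test was run.

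Levels are library-scaled counts (CPM, after TMM scaling), and FPKM, which allows for transcript length, is used where levels of different genes are compared. Bracketed ranges are 95% intervals of counting error alone. A gene was called higher or lower when it was at least 2-fold apart on the log2(CPM + 1) scale, among the 12976 genes whose 4 libraries averaged 1 CPM or more. Of the members, 50 passed that minimum: 7 alpha, 21 beta and 22 gamma. Pcdha3, Pcdha6, Pcdha8, Pcdhac1 and Pcdhb1 did not. Reads from the constant exons are divided among alpha or gamma members by estimation, so a single alpha or gamma value is less certain than a cluster sum, and the beta genes, which share no exon but resemble each other in sequence, are less affected.

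Seh1l, the targeted gene, was at 11 CPM in D3_iKO and 33.2 in D3_Ctrl, 3.01-fold lower (2.58 to 3.54). Its day 0 level was 19.2 CPM in D0_iKO and 40.3 in D0_Ctrl, 2.10-fold lower (1.86 to 2.37). Transcripts of the gene were reduced and remained detectable in both iKO libraries. The 8 markers of neural stem cells were all above the minimum and summed to 4523 CPM in D3_iKO, 4650 in D3_Ctrl, 5820 in D0_iKO and 5672 in D0_Ctrl. Single markers differed more than the sum at day 3: Vim had 2156 CPM in D3_iKO and 1125 in D3_Ctrl, Fabp7 had 1367 in D3_iKO and 2368 in D3_Ctrl, and Prom1, the 1 called higher, had 10.2 in D3_iKO and 3.18 in D3_Ctrl. In bulk RNA, fewer cells of a type and less RNA per cell cannot be told apart.

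The 3 clusters behaved differently. After growth factor withdrawal the alternate alpha isoforms and the beta genes were lower in D3_iKO than in D3_Ctrl, while the gamma cluster was slightly higher. At day 0 the beta and gamma sums were both higher in D0_iKO than in D0_Ctrl. Pcdhgc5 stood above its control level at both days.

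Summed over its 22 members, the gamma cluster held 4702 CPM in D3_iKO and 3760 in D3_Ctrl, and 2136 in D0_iKO and 1724 in D0_Ctrl. The beta cluster held 185 CPM in D3_iKO and 313 in D3_Ctrl, and 66.0 in D0_iKO and 47.8 in D0_Ctrl. The alpha cluster held 27.2 CPM in D3_iKO and 51.4 in D3_Ctrl, and 35.9 in D0_iKO and 40.2 in D0_Ctrl. In FPKM, the median gamma member was at 16.1 in D3_iKO and 13.2 in D3_Ctrl, the median beta member at 1.99 in D3_iKO and 3.95 in D3_Ctrl, and the median alpha member at 0.180 in D3_iKO and 0.830 in D3_Ctrl. The order gamma, beta, alpha held for these FPKM medians in all 4 libraries.

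**Figure D1:**
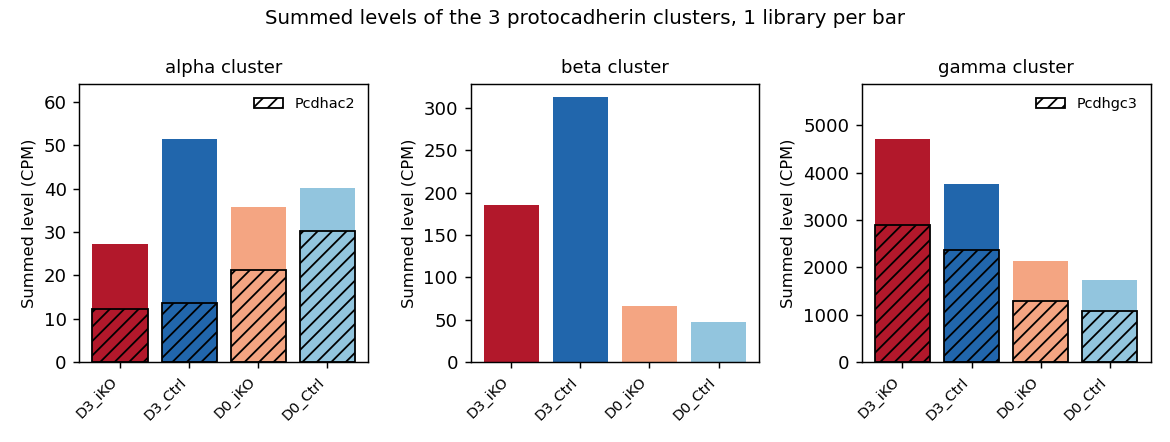
Summed level of the alpha, beta and gamma clusters in CPM (y axis, from 0, a different scale in each panel), 1 bar per library, with no error bars because each group is 1 library; the hatched part is Pcdhac2 or Pcdhgc3. The beta bar stood at 185 CPM in D3_iKO and 313 in D3_Ctrl, while the gamma bar stood at 4702 CPM in D3_iKO and 3760 in D3_Ctrl.

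Most members were higher after growth factor withdrawal in control cells. In D3_Ctrl against D0_Ctrl, 38 of the 50 members were called higher and 1 was called lower, where 14.6% of all genes compared were higher and 15.1% lower. The 38 comprised 6 of 7 alpha, 21 of 21 beta and 11 of 22 gamma members. The median log2 ratio was 1.58 for alpha, 2.20 for beta and 1.04 for gamma members, beside -0.02 over all genes. In D3_iKO against D0_iKO, 25 members were called higher and 0 lower, beside 11.2% and 11.5% of all genes. These were 1 of 7 alpha, 13 of 21 beta and 11 of 22 gamma members, with median log2 ratios of -0.31, 1.12 and 0.99 beside -0.01 over all genes.

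As sums, the beta cluster was 2.80-fold higher (2.63 to 2.98) in D3_iKO than in D0_iKO and 6.56-fold higher (6.13 to 7.03) in D3_Ctrl than in D0_Ctrl. The 9 alternate alpha members together were 1.12-fold higher (0.951 to 1.33) in D3_iKO than in D0_iKO, an interval that spans no change, and 4.38-fold higher (3.71 to 5.20) in D3_Ctrl than in D0_Ctrl. The gamma cluster differed little between genotypes on this scaling, with ratios of 2.20 (2.18 to 2.23) in iKO and 2.18 (2.15 to 2.21) in Ctrl. Scaled by library totals in place of TMM, its log2 ratios were 1.00 in iKO and 1.20 in Ctrl.

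**Figure D2:**
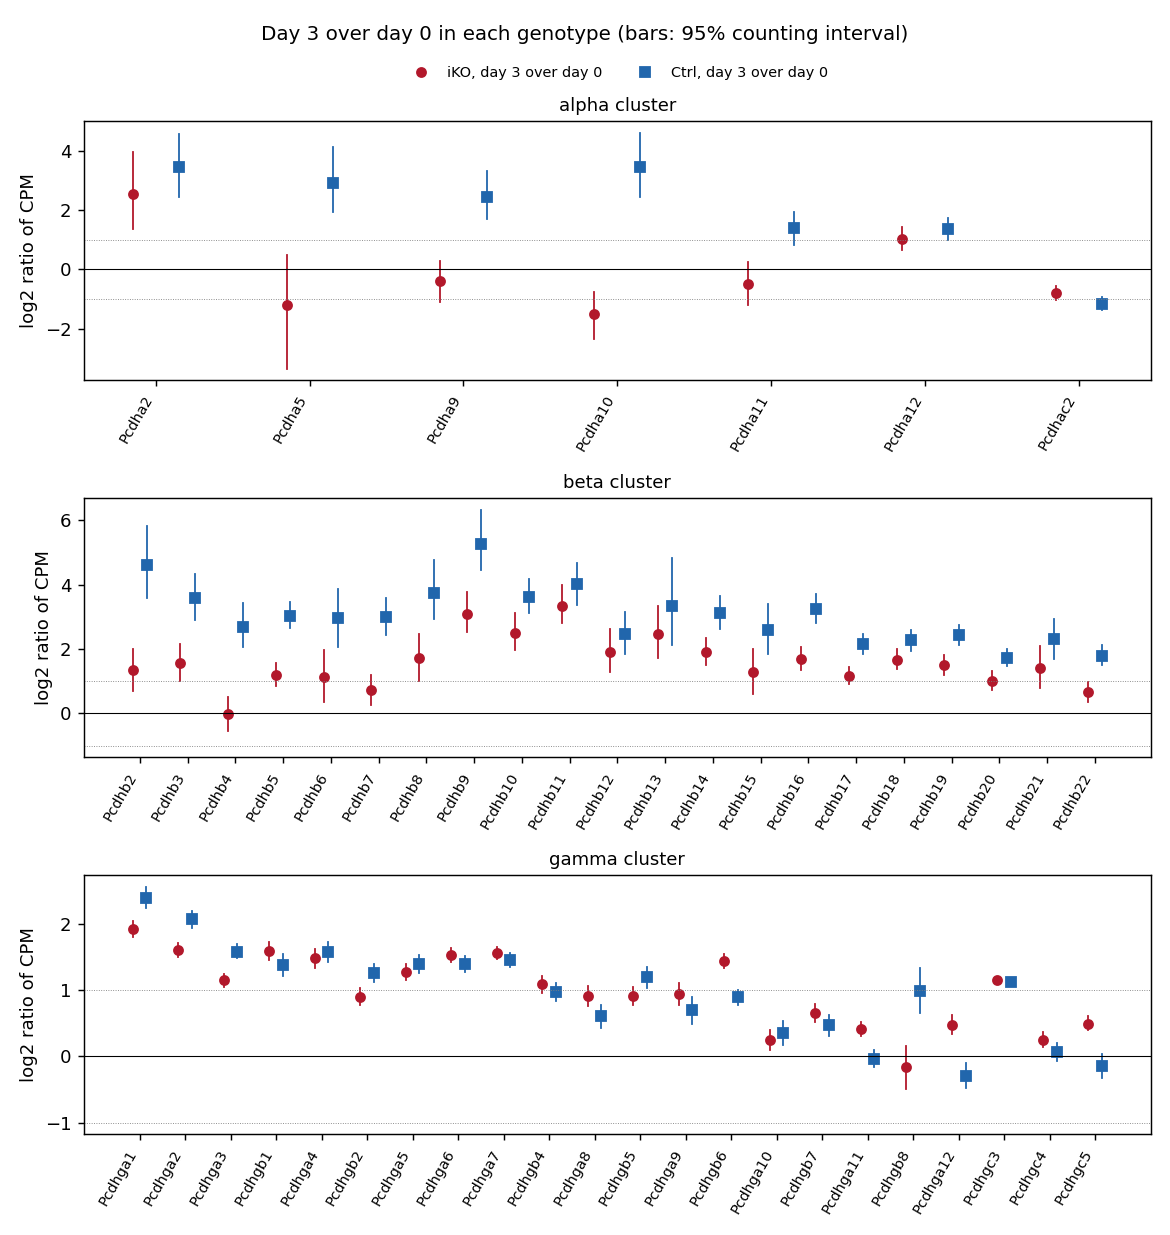
Log2 ratio of CPM, day 3 over day 0, for each of the 50 members that passed the minimum (x axis, in their order on the chromosome), in iKO (red circles) and in Ctrl (blue squares), 1 library per group and day; bars are 95% counting intervals and dotted lines mark 2-fold. All 21 beta members lay above the upper dotted line in Ctrl, and along the gamma A and B genes the ratio was smaller towards the end of the array.

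With Seh1 depleted, 2 members were called higher and 11 lower in D3_iKO against D3_Ctrl, where 6.28% of all genes were higher and 4.78% lower. The lower members were Pcdha2, Pcdha5, Pcdha9, Pcdha10 and Pcdha11 of the alpha cluster and Pcdhb2, Pcdhb3, Pcdhb5, Pcdhb7, Pcdhb8 and Pcdhb10 of the beta cluster. The higher ones were Pcdhga12 and Pcdhgc5. The median log2 ratio was -1.02 for alpha, -0.73 for beta and 0.43 for gamma members, beside -0.01 over all genes. In D0_iKO against D0_Ctrl, Pcdha10 and Pcdhgc5 were called higher, 2 of 50 members, and 0 lower, beside 2.67% and 0.331% of all genes. Median log2 ratios there were 0.05 for alpha, 0.37 for beta and 0.33 for gamma members, beside -0.06 over all genes. The day 3 comparisons of genotype and of day in control cells share the D3_Ctrl library, so their values are not independent.

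**Figure D3:**
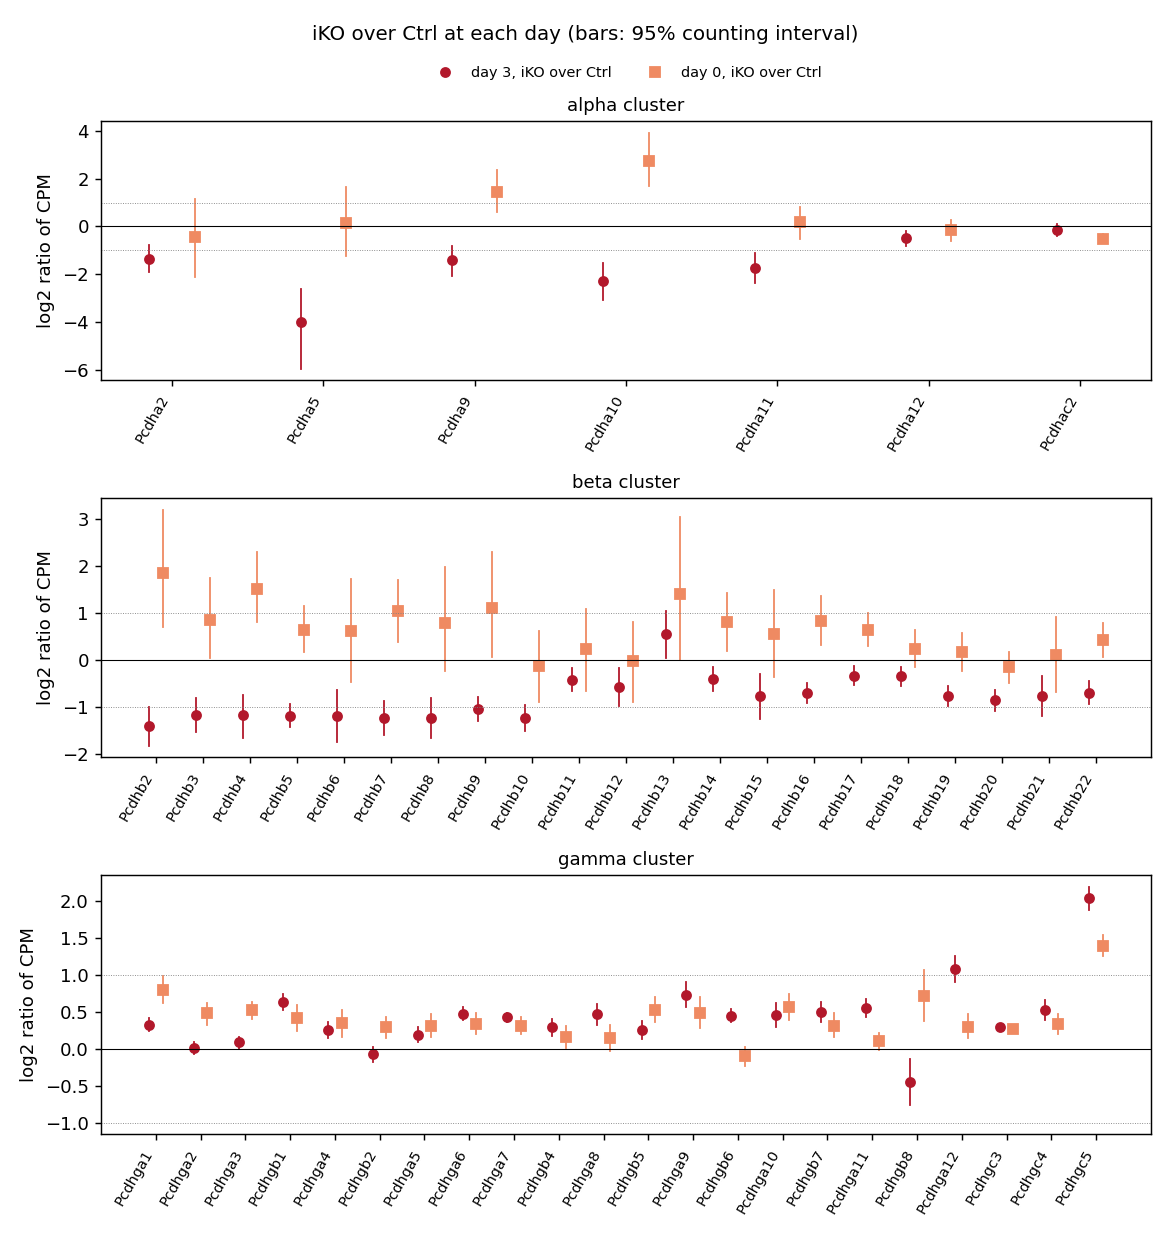
Log2 ratio of CPM, iKO over Ctrl, for each of the 50 members that passed the minimum (x axis, in their order on the chromosome), at day 3 (red circles) and at day 0 (orange squares), 1 library per group; bars are 95% counting intervals and dotted lines mark 2-fold. Of the 21 beta members, 20 lay below 0 at day 3 and 18 lay above 0 at day 0, and Pcdhgc5 at the end of the gamma panel was above 2-fold at both days.

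The alternate alpha isoforms lie in a cluster whose analysed members span positions 36939205 to 37188897 of chromosome 18 (GRCm38). Pcdha10 had 1.01 CPM in D3_iKO and 4.85 in D3_Ctrl, 4.82-fold lower (2.91 to 8.30). It had 2.88 CPM in D0_iKO and 0.435 in D0_Ctrl, 6.63-fold higher (3.23 to 14.9), so that the 2 days went opposite ways. Pcdha9 ran the same course with a smaller span, at 1.65 CPM in D3_iKO and 4.37 in D3_Ctrl, and at 2.15 CPM in D0_iKO and 0.795 in D0_Ctrl. D3_iKO held less of both genes than D3_Ctrl, and D0_iKO held more than D0_Ctrl.

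Pcdha5 had 0.217 CPM in D3_iKO, from 4.09 expected counts, and 3.42 CPM in D3_Ctrl, from 68.7, which was 15.8-fold lower (6.04 to 61.1). Its day 0 levels were 0.504 CPM in D0_iKO and 0.452 in D0_Ctrl. Control cells at day 3 were thus the only library in which it was above 1 CPM. Pcdha11 had 1.48 CPM in D3_iKO and 4.85 in D3_Ctrl, 3.29-fold lower (2.14 to 5.19), and 2.08 CPM in D0_iKO and 1.85 in D0_Ctrl. Pcdha2, the first alpha member with a value, had 1.88 CPM in D3_iKO and 4.79 in D3_Ctrl, 2.54-fold lower (1.69 to 3.78), and 0.321 CPM in D0_iKO and 0.432 in D0_Ctrl. Pcdha2 was the sole alpha member called higher at day 3 in iKO cells, 5.87-fold (2.61 to 15.8) above D0_iKO.

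Pcdha12, the last alternate alpha exon, was least apart by genotype at day 3 among the alternate members that passed the minimum. Its levels were 7.96 CPM in D3_iKO and 11.2 in D3_Ctrl, 1.41-fold lower (1.14 to 1.74), and 3.86 CPM in D0_iKO and 4.32 in D0_Ctrl. It was the most abundant alternate isoform at day 3, at 1.45 FPKM in D3_iKO and 2.15 in D3_Ctrl. Below the minimum, Pcdha8 had 0.605 CPM in D3_iKO, 2.47 in D3_Ctrl and 0.697 in D0_iKO, with 0 counts in D0_Ctrl. Against a floor of 3 counts per library Pcdha8 was at least 16.7-fold higher in D3_Ctrl than in D0_Ctrl, and the exact counting interval of that ratio begins at 13.2. Pcdha3 had 0.190 CPM in D3_iKO and 1.30 in D3_Ctrl, and Pcdha6 had counts assigned to it only in D0_iKO, at 0.498 CPM. Reads from the Pcdha6 exon can also be counted in Gm38666, an overlapping model described below. Gm38666 had 0.177 CPM in D3_iKO, 0.590 in D3_Ctrl, 0.138 in D0_iKO and 0.219 in D0_Ctrl.

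Of the C-type alpha isoforms, Pcdhac1 was also lower in D3_iKO than in D3_Ctrl, and Pcdhac2 was close between genotypes at day 3. Pcdhac2, which is needed for tiling of serotonergic axons in mice, had 12.2 CPM in D3_iKO and 13.6 in D3_Ctrl, and 21.3 in D0_iKO and 30.2 in D0_Ctrl. It was the 1 member called lower with differentiation in control cells, 2.23-fold (1.93 to 2.58), and it was 1.75-fold lower (1.49 to 2.06) in D3_iKO than in D0_iKO without passing the threshold. Pcdhac1 had 0 counts in D3_iKO and 0.649 CPM in D3_Ctrl, at least 4.08-fold lower against the same floor and with a counting interval that begins at 2.86-fold, and 1.24 CPM in D0_iKO and 1.48 in D0_Ctrl.

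The make-up of the alpha cluster differed between the libraries. Pcdhac2 took 44.2% of the summed alpha FPKM in D3_iKO and 25.9% in D3_Ctrl, and 58.6% in D0_iKO and 74.5% in D0_Ctrl. Measured as the inverse Simpson index of FPKM shares, which is the number of equally abundant isoforms that would give the same evenness, the cluster held 3.35 isoforms in D3_iKO and 6.38 in D3_Ctrl, and 2.69 in D0_iKO and 1.75 in D0_Ctrl. The alpha sum by itself hides this, since it adds Pcdhac2 to the alternate members: at day 0 it was 1.12-fold lower (1.01 to 1.24) in D0_iKO than in D0_Ctrl, while the alternate members as a sum were 1.57-fold higher (1.30 to 1.91). That day 0 rise was uneven and came from few counts. Pcdha10 had a log2 ratio of 1.44 and Pcdha9 of 0.81. The median of the 6 alternate members above the minimum was 0.08, with 4 above 0 and 2 below. At day 3 the alternate members were 2.48-fold lower (2.16 to 2.86) in D3_iKO than in D3_Ctrl.

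The annotation also holds read-through models that join an alpha variable exon to the gamma constant exons. Gm37013, Gm38666 and Gm38667 start where Pcdha4, Pcdha6 and Pcdha7 start and end at the end of the gamma cluster, so reads from these alpha exons can be counted there. Together they had 2.25 CPM in D3_iKO and 12.2 in D3_Ctrl, 5.43-fold lower (3.93 to 7.79), and 2.12 CPM in D0_iKO and 2.68 in D0_Ctrl. They were chosen after their values were seen.

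**Figure D4:**
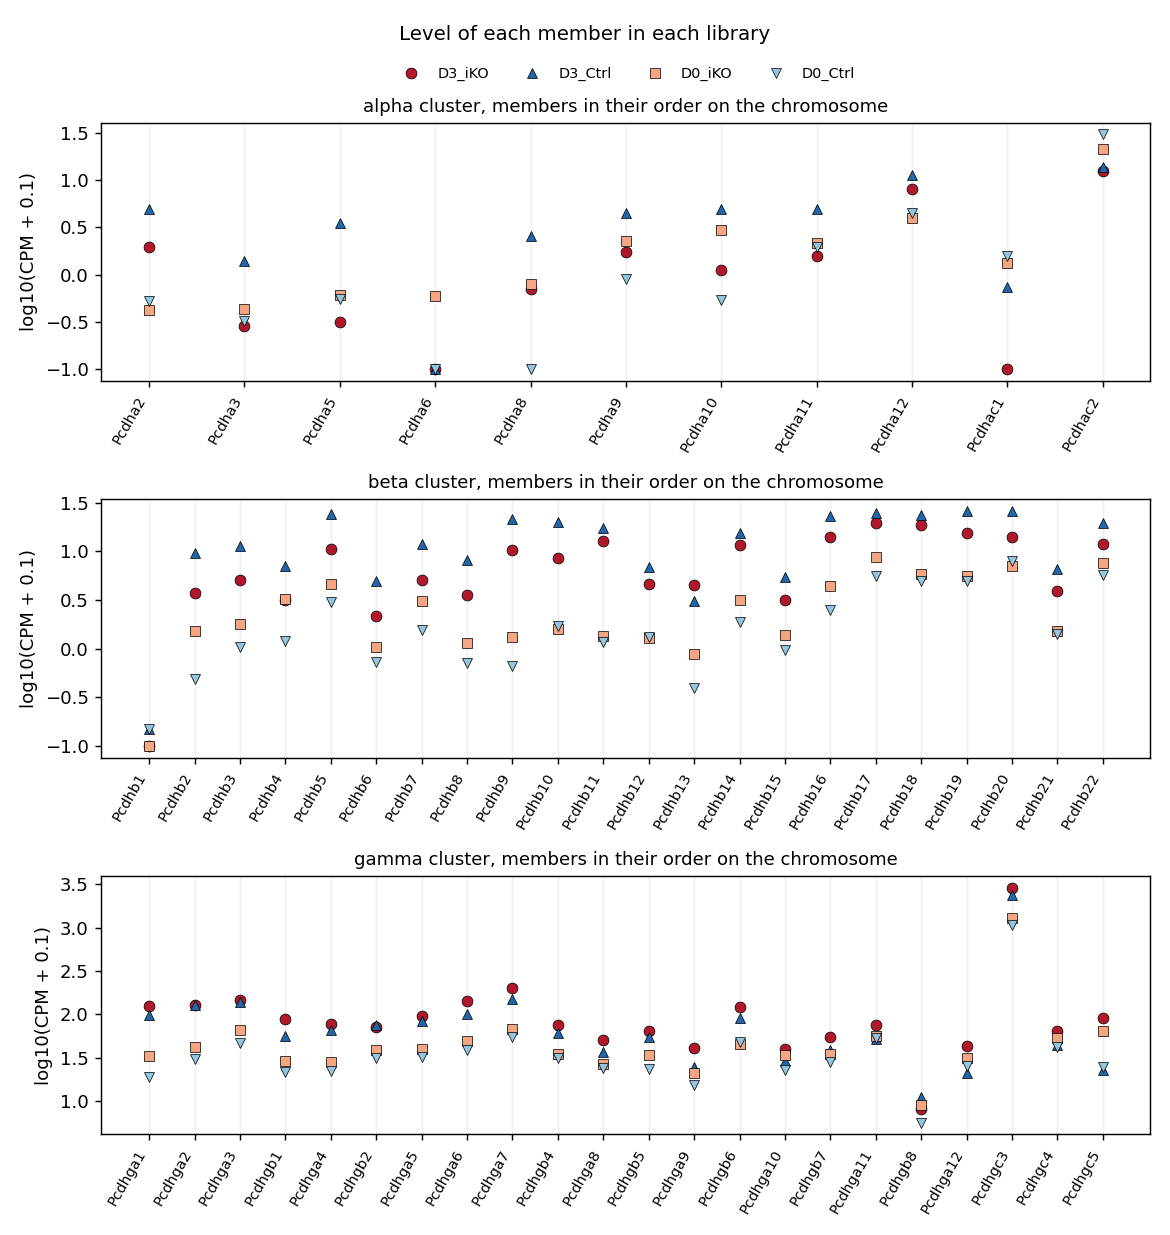
Level of each of the 55 members as log10(CPM + 0.1) (y axis, log scale), members along the x axis in their order on the chromosome, 1 point per library, with D3_iKO as circles, D3_Ctrl as upward triangles, D0_iKO as squares and D0_Ctrl as downward triangles. D3_Ctrl is the highest point for most alternate alpha and beta members, D3_iKO is the highest for most gamma members, and Pcdhgc3 reached 2900 CPM.

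The beta genes lie between positions 37264998 and 37521419, and all passed the minimum except Pcdhb1, which had at most 1 count in a library. As a sum the cluster was 1.70-fold lower (1.63 to 1.77) in D3_iKO than in D3_Ctrl, and 1.38-fold higher (1.27 to 1.50) in D0_iKO than in D0_Ctrl. The log2 ratio of iKO to Ctrl thus differed by -1.23 between day 3 and day 0 (-1.36 to -1.10). Of the 21 members, 20 were below 0 at day 3 and 18 were above 0 at day 0, where 51.3% of all genes were below 0 at day 3 and 43.5% above 0 at day 0.

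The difference at day 3 was uneven along the array. Pcdhb2 to Pcdhb10, which lie next to each other at its start, had log2 ratios of iKO to Ctrl between -1.20 and -0.91. Pcdhb11 to Pcdhb22 lay between -0.82 and 0.43. As sums, the 9 genes of the first stretch held 51.4 CPM in D3_iKO and 118 in D3_Ctrl, 2.29-fold lower (2.12 to 2.47). The 12 genes of the second stretch held 133 CPM in D3_iKO and 196 in D3_Ctrl, 1.47-fold lower (1.40 to 1.54). The first stretch held 18.5 CPM in D0_iKO and 10.2 in D0_Ctrl, 1.81-fold higher (1.53 to 2.15), and the second 47.5 CPM in D0_iKO and 37.5 in D0_Ctrl, 1.27-fold higher (1.15 to 1.39). The split was set after the values were seen, and neighbouring genes share their libraries, so it is a description. Over the 21 genes the day 3 ratio and the place in the array were correlated with Pearson's r = 0.52 and Spearman's rho = 0.64.

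Pcdhb2 was farthest apart among the beta genes, with 3.59 CPM in D3_iKO and 9.55 in D3_Ctrl, 2.66-fold lower (2.0 to 3.55). At day 0 it had 1.42 CPM in D0_iKO and 0.393 in D0_Ctrl, 3.60-fold higher (1.63 to 9.10) from few counts. Its order of genotypes turned round between the days. Pcdhb5 had 10.5 CPM in D3_iKO and 23.9 in D3_Ctrl, 2.28-fold lower (1.92 to 2.70), and 4.56 CPM in D0_iKO and 2.92 in D0_Ctrl. Pcdhb7 had 4.98 CPM in D3_iKO and 11.8 in D3_Ctrl, 2.36-fold lower (1.85 to 3.03), and 3.02 CPM in D0_iKO and 1.47 in D0_Ctrl. These genes behaved alike, with D3_Ctrl the highest library and D0_Ctrl the lowest.

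Pcdhb10 had 8.42 CPM in D3_iKO and 19.9 in D3_Ctrl, 2.37-fold lower (1.96 to 2.86), and 1.48 CPM in D0_iKO and 1.63 in D0_Ctrl, an interval of ratios from 0.539 to 1.52. Unlike Pcdhb2, it was thus apart by genotype at day 3 and not detectably so at day 0. Pcdhb9 showed the largest ratio of day 3 to day 0 in control cells. It had 10.3 CPM in D3_iKO and 21.3 in D3_Ctrl, and 1.21 in D0_iKO and 0.560 in D0_Ctrl, which made D3_Ctrl 38.0-fold higher (21.8 to 79.4) than D0_Ctrl, and D3_iKO 8.54-fold higher (5.74 to 13.6) than D0_iKO. With a log2(CPM + 1) ratio of -0.97 Pcdhb9 was not called between genotypes at day 3. As a plain ratio of CPM it was 2.06-fold lower (1.73 to 2.45) in D3_iKO. Pcdhb4 and Pcdhb6 were likewise not called, at 2.27-fold and 2.30-fold lower in CPM.

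In the second stretch Pcdhb11 had 12.8 CPM in D3_iKO and 17.2 in D3_Ctrl, and 1.26 in D0_iKO and 1.06 in D0_Ctrl. It rose 10.2-fold (6.94 to 16.0) with differentiation in iKO and 16.2-fold (10.3 to 25.7) in Ctrl, with overlapping intervals. Pcdhb14 had 11.6 CPM in D3_iKO and 15.3 in D3_Ctrl, and 3.09 in D0_iKO and 1.76 in D0_Ctrl. Pcdhb17 to Pcdhb20 are neighbours near the end of the array. Pcdhb17 had 19.4 CPM in D3_iKO and 24.5 in D3_Ctrl, 1.26-fold lower (1.10 to 1.45), and 8.56 in D0_iKO and 5.50 in D0_Ctrl. Pcdhb20 had 14.1 CPM in D3_iKO and 25.7 in D3_Ctrl, 1.82-fold lower (1.57 to 2.12), and 6.94 in D0_iKO and 7.77 in D0_Ctrl. Pcdhb18 and Pcdhb19 were 1.28-fold lower (1.11 to 1.47) and 1.70-fold lower (1.46 to 1.96) in D3_iKO than in D3_Ctrl, and none of these 4 was past 2-fold between genotypes at either day. Pcdhb13 was the exception to the day 3 direction, with 4.37 CPM in D3_iKO and 2.98 in D3_Ctrl, 1.47-fold higher (1.03 to 2.07).

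No beta gene dominated. The largest FPKM share was 11.3% (Pcdhb17) in D3_iKO and 8.38% (Pcdhb20) in D3_Ctrl, and 13.9% (Pcdhb17) in D0_iKO and 16.9% (Pcdhb20) in D0_Ctrl. The inverse Simpson index was 16.3 isoforms in D3_iKO and 17.1 in D3_Ctrl, and 13.4 in D0_iKO and 11.5 in D0_Ctrl.

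The gamma cluster, at positions 37661775 to 37841873, was 1.25-fold higher (1.24 to 1.26) in D3_iKO than in D3_Ctrl and 1.24-fold higher (1.22 to 1.26) in D0_iKO than in D0_Ctrl. The log2 ratio of iKO to Ctrl differed between the days by 0.01 (-0.01 to 0.04), beside -1.23 for the beta cluster and -1.96 (-2.30 to -1.63) for the alternate alpha members. The closeness of the days in the gamma cluster depends on the scaling. With library totals its log2 ratios were 0.24 at day 3 and 0.44 at day 0, a gap that the interval does not cover. Types A, B and C were close to each other, 1.25-fold higher in D3_iKO than in D3_Ctrl for each. At day 0 they were 1.29-fold, 1.19-fold and 1.23-fold higher in D0_iKO than in D0_Ctrl for types A, B and C in that order.

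Pcdhgc3, which promotes dendrite branching of cortical neurons in mice through its partner Axin1, made up most of the cluster. It had 2900 CPM in D3_iKO and 2377 in D3_Ctrl, 1.22-fold higher (1.21 to 1.24), and 1299 in D0_iKO and 1084 in D0_Ctrl, 1.20-fold higher (1.18 to 1.22). Its share of gamma FPKM was 61.4% in D3_iKO and 62.8% in D3_Ctrl, and 60.6% in D0_iKO and 62.7% in D0_Ctrl, a span of few percent over the 4 libraries. At 591 FPKM in D3_iKO and 513 in D3_Ctrl it was far above the next member, Pcdhga7, at 41.5 and 32.8 FPKM in the same libraries.

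Pcdhgc5, the last gene of the gamma cluster and reported to bind GABA-A receptors, was the member with the largest ratio in favour of iKO on the log2(CPM + 1) scale at day 3. It had 91.3 CPM in D3_iKO and 22.4 in D3_Ctrl, 4.08-fold higher (3.67 to 4.53). At day 0 it had 64.6 CPM in D0_iKO and 24.7 in D0_Ctrl, 2.62-fold higher (2.37 to 2.91). Both iKO libraries were above both Ctrl libraries, and the change with the day was small, 1.41-fold higher (1.32 to 1.52) in D3_iKO than in D0_iKO, with a ratio of 0.908 (0.798 to 1.03) in D3_Ctrl to D0_Ctrl. Its neighbour Pcdhgc4, which supports survival of cortical interneurons in mice, had 63.3 CPM in D3_iKO and 44.1 in D3_Ctrl, 1.43-fold higher (1.31 to 1.57), and 53.1 in D0_iKO and 42.2 in D0_Ctrl. Pcdhga12, the last type A gene, had 43.4 CPM in D3_iKO and 20.7 in D3_Ctrl, 2.10-fold higher (1.86 to 2.37), and 31.1 in D0_iKO and 25.3 in D0_Ctrl.

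The first genes of the array rose most with differentiation. Pcdhga1 had 124 CPM in D3_iKO and 32.6 in D0_iKO, 3.79-fold higher (3.48 to 4.13), and 98.8 CPM in D3_Ctrl and 18.8 in D0_Ctrl, 5.26-fold higher (4.71 to 5.88). Pcdhga2 rose 3.04-fold (2.82 to 3.29) in iKO, with 128 CPM in D3_iKO and 42.1 in D0_iKO, and 4.20-fold (3.84 to 4.59) in Ctrl, with 127 CPM in D3_Ctrl and 30.3 in D0_Ctrl. Near the far end, Pcdhga11 had 76.0 CPM in D3_iKO and 56.9 in D0_iKO, and 52.0 in D3_Ctrl and 53.1 in D0_Ctrl. Its ratio of day 3 to day 0 was 1.34 (1.24 to 1.44) in iKO and 0.978 (0.898 to 1.07) in Ctrl.

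Between these ends, Pcdhga3 was at 147 CPM in D3_iKO and 139.5 in D3_Ctrl, and at 66.4 in D0_iKO and 46.4 in D0_Ctrl. Pcdhga6 was at 141 CPM in D3_iKO and 102 in D3_Ctrl, and at 48.8 in D0_iKO and 38.6 in D0_Ctrl. Pcdhga7 was at 202 CPM in D3_iKO and 151 in D3_Ctrl, and at 68.5 in D0_iKO and 55.0 in D0_Ctrl. All 3 rose past 2-fold with differentiation in both genotypes. Pcdhga4 rose 2.79-fold (2.53 to 3.07) in iKO and 2.98-fold (2.68 to 3.33) in Ctrl, and Pcdhgb1 rose 3.02-fold (2.75 to 3.32) in iKO and 2.60-fold (2.33 to 2.91) in Ctrl.

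Over the 19 type A and B genes, the log2 ratio of day 3 to day 0 and the place in the array were correlated with Pearson's r = -0.81 in iKO and -0.90 in Ctrl, and with Spearman's rho = -0.81 in iKO and -0.91 in Ctrl. Genes are not replicates, and these share constant exons and libraries. The 10 genes before Pcdhga8 were 2.68-fold higher (2.62 to 2.75) in D3_iKO than in D0_iKO and 2.94-fold higher (2.86 to 3.02) in D3_Ctrl than in D0_Ctrl. The 9 genes from Pcdhga8 on were 1.71-fold higher (1.65 to 1.76) in D3_iKO than in D0_iKO and 1.45-fold higher (1.40 to 1.50) in D3_Ctrl than in D0_Ctrl. That split, too, was set after the values were seen.

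Genes beside and between the clusters gave no call by genotype. Of Hars, Hars2 and Zmat2 before the alpha cluster, Slc25a2 and Taf7 between beta and gamma, and Diaph1, Hdac3 and Rell2 after gamma, 0 were past 2-fold on the log2(CPM + 1) scale between genotypes at either day. Of all genes compared, 6.28% were higher and 4.78% lower at day 3, and 2.67% and 0.331% at day 0. With shares this small, 0 of 8 does not set these genes apart. The read-through models described above overlap the clusters and are not among the 8. Slc25a2 is below the minimum and could not be called, with 0.106 CPM in D3_iKO and 0.249 in D3_Ctrl, and the pseudocount shrinks its ratio. The log2 ratios of the 8 in D3_iKO against D3_Ctrl lay between -0.29 (Taf7) and 0.16 (Diaph1).

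In the authors' deposited table for day 3, 1774 genes are listed, 911 higher and 863 lower in iKO than in Ctrl, and 18 are clustered protocadherins. Those listed lower are 8 alpha and 9 beta members, with Pcdha5 lowest at a log2 ratio of -4.04, and the member listed higher is Pcdhgc5 at 1.94. The 9 beta members in the authors' deposited table are Pcdhb2 to Pcdhb10. The authors' deposited table for day 0 lists 103 genes and 0 members. Both tables rest on 1 library per genotype, and variation between cultures does not enter their FDR.

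The factors that act on the clusters were set beside them. CTCF, cohesin and its loaders form a list of 11 genes. Their median log2 ratio was -0.22 in D3_iKO against D3_Ctrl and -0.51 in D0_iKO against D0_Ctrl, beside -0.01 and -0.06 over all genes. At either day 0 of 11 passed 2-fold. Of all genes, 6.28% were higher and 4.78% lower at day 3, and 2.67% and 0.331% at day 0. With shares this small, 0 of 11 does not set the list apart. By sign, 10 of the 11 were below 0 at day 3 and 11 of 11 at day 0, beside 51.3% and 56.5% of all genes. Ctcf had 98.4 CPM in D3_iKO and 124 in D3_Ctrl, 1.26-fold lower (1.19 to 1.34), and 142 in D0_iKO and 205 in D0_Ctrl, 1.45-fold lower (1.38 to 1.51). Mau2, a cohesin loader, had 78.2 CPM in D3_iKO and 119 in D3_Ctrl, and the cohesin subunit gene Smc3 had 107 in D3_iKO and 143 in D3_Ctrl.

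Among the non-clustered protocadherins, 11 of 12 passed the minimum, and 4 were called lower and 0 higher in D3_iKO against D3_Ctrl, beside 4.78% and 6.28% of all genes, with a median log2 ratio of -0.23. These were Pcdh8, Pcdh11x, Pcdh15 and Pcdh20. Pcdh15, known from the tip links of hair cells, had 5.51 CPM in D3_iKO and 92.3 in D3_Ctrl, 16.7-fold lower (13.7 to 20.6), and 5.74 in D0_iKO and 10.7 in D0_Ctrl. Pcdh8 had 2.65 CPM in D3_iKO and 12.9 in D3_Ctrl, 4.86-fold lower (3.58 to 6.72). In control cells 9 of the 11 were called higher at day 3 than at day 0, and 6 of 11 in iKO cells, beside 14.6% of all genes in Ctrl and 11.2% in iKO.

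Of 21 intracellular partners and processing enzymes, 1 was called higher and 3 lower in D3_iKO against D3_Ctrl, beside 6.28% and 4.78% of all genes, and their median log2 ratio was -0.05. The higher gene was Ptk2b, which encodes the kinase Pyk2 that protocadherin cytoplasmic domains inhibit. It had 8.80 CPM in D3_iKO and 0.945 in D3_Ctrl, 9.31-fold higher (5.78 to 15.9), and 9.54 in D0_iKO and 1.62 in D0_Ctrl, 5.88-fold higher (4.06 to 8.77). The lower genes were Wasf1 and Cyfip2 of the WAVE actin regulator, and Marcks, which binds membranes and actin. Wasf1 had 41.0 CPM in D3_iKO and 152 in D3_Ctrl, 3.70-fold lower (3.42 to 4.01).

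Markers of other cell types differed between genotypes as well. Of 10 neuronal markers that passed the minimum, 5 were called lower and 0 higher in D3_iKO against D3_Ctrl, beside 4.78% and 6.28% of all genes. Their median log2 ratio was -1.05, although Stmn2 and Syt1 lay above 0. In D0_iKO against D0_Ctrl, 2 of the 10 (Stmn2 and Gad1) were called higher and 0 lower, beside 2.67% and 0.331% of all genes. The median there was 0.44. These medians had the same sign as those of the beta genes at both days. A link between them was not tested. The neuronal list, most of it Map2, summed to 1051 CPM in D3_iKO, 1918 in D3_Ctrl, 1023 in D0_iKO and 1061 in D0_Ctrl. Mog, an oligodendrocyte marker below the minimum, had 1.06 CPM in D3_iKO and 1.14 in D3_Ctrl. Of the 8 oligodendrocyte lineage markers that passed the minimum, 8 were called lower at day 3, beside 4.78% of all genes. In D0_iKO against D0_Ctrl, 4 of the 8 were called lower and 0 higher, beside 0.331% and 2.67% of all genes. Their median log2 ratio was -0.72. The oligodendrocyte sums were 169 CPM in D3_iKO, 1217 in D3_Ctrl, 216 in D0_iKO and 278 in D0_Ctrl. Dcx, a marker of young neurons, had 15.4 CPM in D3_iKO and 147 in D3_Ctrl, and Gpr17, a marker of oligodendrocyte precursors, had 3.44 in D3_iKO and 376 in D3_Ctrl. None of the neuronal and oligodendrocyte markers was at 0 in any library. Their part in the protocadherin differences was not tested.

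The astrocyte markers summed to 10106 CPM in D3_iKO, 9707 in D3_Ctrl, 2514 in D0_iKO and 1871 in D0_Ctrl. At day 3, 0 of 8 were past 2-fold between genotypes, beside 6.28% of all genes higher and 4.78% lower. With shares this small, 0 of 8 does not set the list apart. Of the 8, 6 were above 0 at day 3 and 2 below. Aqp4 had 767 CPM in D3_iKO and 388 in D3_Ctrl, and S100b had 84.8 in D3_iKO and 45.3 in D3_Ctrl. Aldh1l1 went the other way, with 567 CPM in D3_iKO and 797 in D3_Ctrl. At day 0, 2 of the 8 were called higher, beside 2.67% of all genes. Their median log2 ratios of iKO to Ctrl, 0.24 at day 3 and 0.56 at day 0, had the same sign as those of the gamma members. The ependymal list, most of it Foxj1, summed to 272 CPM in D3_iKO, 70.1 in D3_Ctrl, 108 in D0_iKO and 53.5 in D0_Ctrl. Foxj1, a regulator of motile cilia, was called higher in iKO at both days, at 266 CPM in D3_iKO and 67.9 in D3_Ctrl, and at 103 in D0_iKO and 50.9 in D0_Ctrl. Proliferation genes summed to 209 CPM in D3_iKO, 211 in D3_Ctrl, 2173 in D0_iKO and 3665 in D0_Ctrl. The sums for microglia, endothelium, choroid plexus and fibroblast or mural cells were at most 9.11, 4.03, 1.99 and 19.7 CPM in any library. None of these lists was tested for a part in the values of the clusters.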

How the data were processed

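Libraries of total RNA (BGI kit, per the labels' protocols) were deposited as 1 table per library with 55122 transcripts. HISAT, Bowtie2, StringTie and the mm10 build are named, per the submitters' processing notes. Not given in the sources used here are their versions, the annotation and the counting tool. The authors deposited an expected count, an estimate with decimals, and an expression value whose header names no unit. FPKM was assumed for it. From library to library the value per expected count changed by the same factor for nearly all transcripts. Other per-length units scaled by library would give this too, so the check does not settle the unit. Lists of differential genes deposited by the authors hold a log2 ratio and an FDR (an adjusted p-value) whose method no source used here gives.

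Expected counts were summed per gene and rounded for scaling with edgeR 4.0.16 (TMM, R 4.3.3). RefSeq (GRCm38.p6, the build of the files) gave symbols and coordinates for 17498 of 17621 gene IDs. Each member has 1 transcript model. Log2 ratios use a pseudocount of 1 CPM, which understates low genes. Folds are ratios of CPM without it, with exact conditional 95% intervals (scipy 1.17.1) that cover counting error only, since reads are not independent molecules, and the interval of a difference between days is a Wald interval of the same counts. The floor was 3 counts per library. The ratio code was tested on simulated counts. Samples were grouped by their titles. Named with full values are, per cluster, the 4 members with the highest mean CPM and up to 4 called members per direction and comparison with the largest ratios, and per list the 2 genes with the largest day 3 ratio, of which part are given. Members and lists were chosen with earlier results of these data known. Alternatives were deposited FPKM, scaling by library totals or by size factors of DESeq2 1.42.0, a pseudocount of 0.1 CPM and no minimum.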

Additional observations from a re-analysis of the deposited data

Results flagged for a closer look

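For the following items the ratio of iKO to Ctrl went opposite ways at the 2 days, below 1 at day 3 and above 1 at day 0, each beyond its own counting interval. With 1 library per group the difference between the days was not tested against variation between cultures. It is given as the log2 ratio at day 3 minus that at day 0, without a pseudocount.

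The difference was -1.23 for the beta cluster as a sum and -1.96 for the alternate alpha members as a sum. Among alpha members it was -2.84 for Pcdha9 and -5.00 for Pcdha10. In the first stretch of the beta array it was -3.26 for Pcdhb2, -2.02 for Pcdhb3, -2.69 for Pcdhb4, -1.83 for Pcdhb5, -2.28 for Pcdhb7 and -2.15 for Pcdhb9. Farther along it was -1.21 for Pcdhb14, -1.53 for Pcdhb16, -0.98 for Pcdhb17 and -1.12 for Pcdhb22. The only gamma gene with this pattern was the transcribed pseudogene Pcdhgb8, at -1.15.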

How the results depend on the processing

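DESeq2 size factors left every cluster sum and member count within its limits. The 79 called member values kept their sign under each of 4 alternatives, and 283 of those 316 values stayed past 2-fold. Library totals moved the median log2 ratio of all genes in D0_iKO against D0_Ctrl to 0.06, in place of -0.06, and that in D3_iKO against D0_iKO to -0.13, in place of -0.01, and deposited FPKM gave 0.05 and -0.12. No cluster sum changed sign under either scaling. The 4 alpha sums, and the beta sum in D3_Ctrl against D0_Ctrl with library totals, stayed within their counting error, although the alpha sum in D0_iKO against D0_Ctrl came to -0.03 and -0.02, in place of -0.16. The other beta and gamma sums moved by more than it. With library totals the beta sum had log2 ratios of 0.59 in D0_iKO against D0_Ctrl, -0.84 in D3_iKO against D3_Ctrl and 1.35 in D3_iKO against D0_iKO. The gamma sum had 0.44, 0.24 and 1.00 in the same comparisons and 1.20 in D3_Ctrl against D0_Ctrl. With deposited FPKM the beta sum had 0.60, -0.88 and 1.34, and 2.81 in D3_Ctrl against D0_Ctrl, and the gamma sum had 0.44, 0.24, 1.01 and 1.21 in that order.

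Counts of called members were most sensitive to FPKM, where a pseudocount of 1 FPKM is large beside low members. In D3_iKO against D3_Ctrl 3 members were lower and 1 higher, in place of 11 and 2. In D0_iKO against D0_Ctrl 1 was higher, in D3_Ctrl against D0_Ctrl 0 were lower, and in D3_iKO against D0_iKO 14 were higher, in place of 25. With library totals 1 member was higher in D3_iKO against D3_Ctrl. A pseudocount of 0.1 CPM gave 6 members higher in D0_iKO against D0_Ctrl, in place of 2. That pseudocount, no minimum and library totals each gave 1 member lower in D3_iKO against D0_iKO, in place of 0.

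The alternatives that leave out or add members were chosen after seeing the data. Without Pcdhac2 the alpha sum turned to 0.55 in D0_iKO against D0_Ctrl and to 0.04 in D3_iKO against D0_iKO, in place of -0.16 and -0.40, and came to -1.34 in D3_iKO against D3_Ctrl and 1.92 in D3_Ctrl against D0_Ctrl. With the 3 read-through models it was -1.11 in D3_iKO against D3_Ctrl and 0.57 in D3_Ctrl against D0_Ctrl. Without Pcdhgc3 the gamma sum was 0.39 in D0_iKO against D0_Ctrl, 0.38 in D3_iKO against D3_Ctrl and 1.11 in D3_iKO against D0_iKO. No paired analysis was possible because each group holds 1 library. Depth limits the alpha members most: Pcdha5 had 4.09 counts in D3_iKO.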

Other observations

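Cadherins outside the protocadherin family were set beside the clusters. Of 18 listed, among them the GPI-anchored Cdh13, 9 passed the minimum and 0 of these were past 2-fold between genotypes at day 3 or day 0. The shares of all genes were 6.28% higher and 4.78% lower at day 3, and 2.67% and 0.331% at day 0. With shares this small, 0 of 9 does not set these cadherins apart. Their median log2 ratio was 0.09 in D3_iKO against D3_Ctrl and 0.02 in D0_iKO against D0_Ctrl. The largest ratios at day 3 in each direction were small: Cdh24 had 6.52 CPM in D3_iKO and 10.3 in D3_Ctrl, and Cdh13 had 145 in D3_iKO and 120.4 in D3_Ctrl.

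Of 15 DNA methylation and silencing factors, 0 were past 2-fold between genotypes at either day, beside the same shares of all genes as for the cadherins. The median log2 ratio was -0.42 in D3_iKO against D3_Ctrl and -0.27 in D0_iKO against D0_Ctrl, and 14 of the 15 were below 0 at each day, beside 51.3% of all genes at day 3 and 56.5% at day 0. Trim28, a corepressor of KRAB zinc finger proteins, had 143 CPM in D3_iKO and 236 in D3_Ctrl, and Wiz, a partner of the G9a methyltransferase, had 86.6 in D3_iKO and 144 in D3_Ctrl.

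Left without its dominant member Pcdhgc3, the gamma cluster was even in every library, with an inverse Simpson index of 16.6 isoforms in D3_iKO, 15.5 in D3_Ctrl, 18.5 in D0_iKO and 18.1 in D0_Ctrl.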
